A study of Mus musculus with 4 samples.

Results

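The genes described here make ribosomes, run translation and charge tRNAs. They were chosen by a rule on gene symbols alone. Its symbols cover subunits of RNA polymerase I, ribosome assembly factors, translation factors with their regulators, and aminoacyl-tRNA synthetases. Of the 5807 genes that the deposited comparison of pleural cavity with bone marrow eosinophils lists, 46 qualified. The same rule matches 154 protein-coding genes in the annotation, so most of the machinery is not listed and has no value or direction here. All eosinophils came from wild-type mice (6 to 8 weeks old in the study) given 150000 Lewis lung carcinoma (LLC) cells into the pleural cavity, a model of malignant pleural effusion (MPE), and were sorted on day 2. The pleural cavity group and the bone marrow group had 2 libraries each, with about 40000 eosinophils per extraction and a purity over 99%. Labels and methods place LLC on the bone marrow samples as well, although elsewhere the study calls those cells naïve. The sorting gates differed. After CD45 enrichment, pleural cavity cells were selected as CD11b+F4/80+SiglecF+SSChi, negative for CD11c and negative or low for Gr1. Bone marrow cells were selected as CD45+SiglecF+SSChi after F4/80 enrichment. How many mice each library pooled is not given in the sources used here.

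A ribosome is built in the nucleolus, where RNA polymerase I makes the precursor rRNA and snoRNPs and assembly factors modify, cut and fold it into a small and a large subunit. Translation is then started by eIF factors at the mRNA cap, continued by eEF factors, and fed by synthetases that load each tRNA with its amino acid. Myc and mTORC1 are known to raise this programme, and kinases and 4E-binding proteins hold it back. Eosinophils mature in the bone marrow and enter tissues as cells that no longer divide.

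The promoter windows below are shown because the genes they belong to sit on both sides of the comparison, and because their letters include motifs of known regulators of this programme. They were read from RefSeq promoters on GRCm38.p6, plus strand, 5′ to 3′, where 34 of the 46 genes have an entry. Capitals mark the E-box CACGTG, which Myc and related proteins bind, and the core of the amino acid response element TGATGNAA on either strand, which ATF4 binds. The windows are Aars chr8:111033682-111033761, Gars chr6:55037941-55038000, Iars chr13:49682040-49682099, Eif4e chr3:138527178-138527237, Eef2 chr10:81176561-81176620 and Eef2k chr7:120842771-120842830. Each lies before a RefSeq start of its gene, the farthest base being 160 bases upstream. In the GENCODE annotation used for gene positions below, Aars and Eif4e start farther upstream, so that their windows fall inside the annotated genes.
Aars: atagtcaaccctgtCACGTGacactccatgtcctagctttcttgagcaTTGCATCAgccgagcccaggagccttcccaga
Gars: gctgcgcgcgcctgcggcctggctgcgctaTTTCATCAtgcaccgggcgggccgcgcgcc
Iars: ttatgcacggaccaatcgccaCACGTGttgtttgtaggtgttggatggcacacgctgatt
Eif4e: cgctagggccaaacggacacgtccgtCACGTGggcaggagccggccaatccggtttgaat
Eef2: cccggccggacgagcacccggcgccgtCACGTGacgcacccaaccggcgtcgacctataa
Eef2k: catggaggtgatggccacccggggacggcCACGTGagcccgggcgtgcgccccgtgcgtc

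Of the 46 genes, 33 were lower and 13 higher in pleural cavity eosinophils. Levels are the authors' mean reads of a tissue per 1000000 reads of all listed genes (RPM here), and ratios are pleural cavity over bone marrow on the log2 scale. Over 2-fold lower were 25 of the 46 genes (54.3%), and over 2-fold higher were 3 (6.52%), namely Wars, Eif4ebp1 and Eef2k. The other 18 lay within 2-fold. Among all listed genes 50.5% were over 2-fold lower and 16.0% over 2-fold higher, so the share of lower members is close to that background. The role groups below hold 2 to 10 genes each, so their counts are to be read beside these shares and carry no test. None of the 46 genes had fewer than 44 mean reads in either tissue, whereas 695 listed genes have a mean of 0 in the pleural cavity. Without any scaling for depth the counts were 15 lower and 7 higher, and the median log2 ratio of all listed genes was -0.58.

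By any amount, 33 of the 46 genes (71.7%) were lower, against 57.5% of all listed genes. The study's own comparison reports more of the listed genes as downregulated than the 3339 that were lower here. Its ratios were not used, so the 46 genes were not set against the study's split. The 57.5% holds for the scaling used here alone. Whether the share of lower members would lie above or below the study's own share was not tested. The median log2 ratio of the 46 was -1.16, beside -1.02 over all listed genes. Ratios ran from -2.51 for Aars to 1.80 for Wars, both cytoplasmic tRNA synthetases. Summed, the 46 genes took 0.794% of listed reads in the pleural cavity group against 1.14% in the bone marrow group. The table holds means only, so no spread between the libraries is known, no ratio here carries an error or a test of its own, and the choice of listed genes rests on the authors' test.

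The tissues also differed in markers of other cells, and fewer cells of a type cannot be told apart from less RNA per cell. All 11 neutrophil and granulocyte precursor markers were lower in pleural cavity eosinophils and summed to 165 RPM there against 104914 in bone marrow, which is 0.0165% and 10.5% of listed reads. All 5 basophil and mast cell markers (3.79 against 914 RPM) and all 8 proliferating cell markers (176 against 2367 RPM) were lower as well. The 7 listed macrophage markers of 8 summed to 9857 and 9432 RPM, with 4 higher and 3 lower. Among them Adgre1, Csf1r and C1qb were 4.78-fold, 3.83-fold and 3.42-fold higher. Lyz2, the one with most reads in bone marrow, was at 3159.9 against 7441 RPM. Adgre1, at 4635 against 969.7 RPM, encodes a surface protein by which the eosinophils of both tissues were themselves selected. Its reads, and the macrophage sums that include them, therefore cannot be assigned to macrophages. Of the eosinophil markers, Ccr3, Siglecf and Gata1 were over 2-fold higher, and the granule genes Epx and Prg2 were 552-fold and 508-fold lower. With the total taken without granulocyte and basophil markers, Prg2 and Epx, 29 of the 46 genes were over 2-fold lower and 3 over 2-fold higher. This total shifts every listed gene alike, and the median log2 ratio of all listed genes moved from -1.02 to -1.28. The part that precursors, dividing cells and macrophages have in the values of the 46 genes was not tested. Listed mean reads summed to 15947438 for the pleural cavity and 11762543 for the bone marrow, over listed genes alone, so the depth of a library is unknown.

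**Figure D1:**
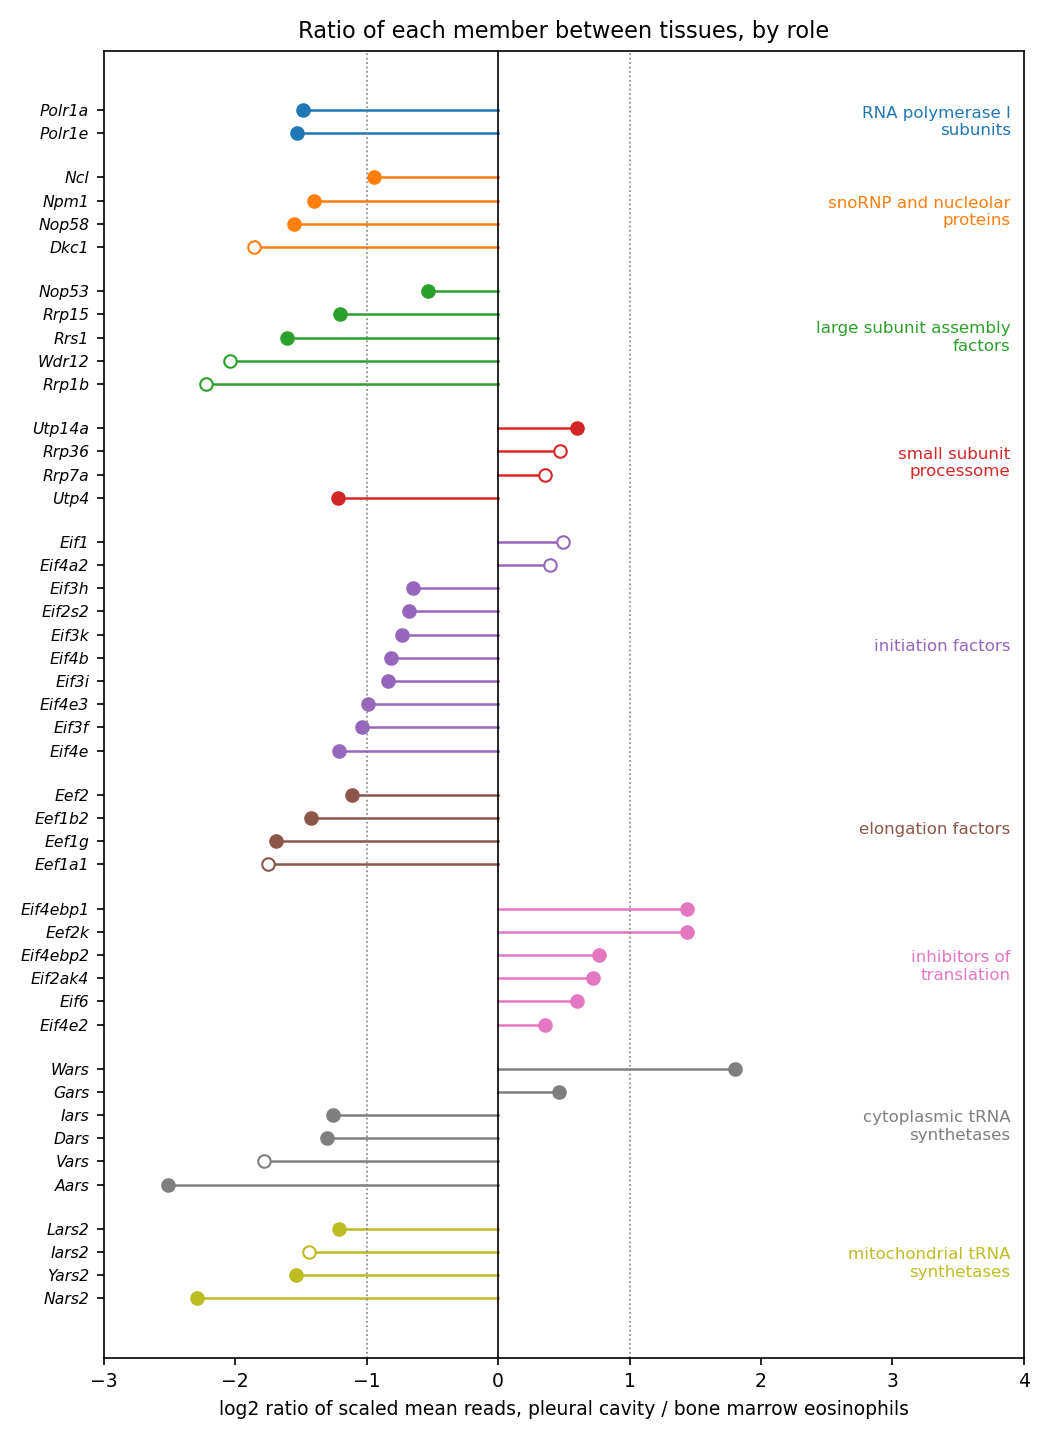
Log2 ratio of pleural cavity over bone marrow RPM for the genes reported singly, 1 of the 46 left out (x axis), grouped by role (y axis). Each point is 1 gene, open points are genes with fractional mean reads, and the dotted lines mark 2-fold. Elongation factors and the members grouped as mitochondrial synthetases all lie left of the lower line. Those grouped as inhibitors of translation all lie right of 0, and Wars is the point farthest to the right.

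Both listed subunits of RNA polymerase I were lower. Polr1a, the largest subunit, was at 20.9 RPM in the pleural cavity against 58.5 in the marrow, a log2 ratio of -1.48. Polr1e, a subunit that helps initiation, was at 6.62 and 19.1 RPM, a ratio of -1.53. These are 2.79-fold and 2.89-fold lower levels. Polr1b, which forms the active site together with Polr1a, is not listed.

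Of the 4 listed snoRNP and nucleolar proteins, 3 were over 2-fold lower. Dkc1, the pseudouridine synthase of box H/ACA snoRNPs, was at 28.8 against 104 RPM, a log2 ratio of -1.86, and its mean reads were fractional, as estimates are when a read is divided between similar genes. Nop58, a core protein of box C/D snoRNPs, was at 29.6 against 86.6 RPM, a ratio of -1.55. Npm1, the abundant nucleolar chaperone, was at 98.7 against 259.9 RPM, which is 2.63-fold lower. Ncl, which acts on precursor rRNA, had the most reads of the 4 and stayed just within 2-fold, with 178 against 343 RPM and a ratio of -0.95. The C/D partners Fbl and Nop56 are not listed.

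The 5 members grouped as large subunit assembly factors were lower, 4 of them over 2-fold. Eif6, which also takes part in making the large subunit, was counted with the inhibitors and was higher, as were Rpf1 and Rsl24d1 outside the symbol rule (1.45-fold and 1.30-fold). Rrp1b showed the widest gap, with 8.40 RPM against 39.2 in the bone marrow group, 4.67-fold lower. Wdr12, part of the complex with Pes1 and Bop1 that processes large subunit rRNA, was at 21.1 against 86.4 RPM, 4.11-fold lower. Its partners Pes1 and Bop1 are not listed, and the mean reads of Rrp1b and Wdr12 were fractional. Rrs1 was at 16.5 against 50.3 RPM (log2 ratio -1.61) and Rrp15 at 9.22 against 21.2, 2.30-fold lower. Nop53 had the most reads of the 5 and differed least, at 249 against 359.9 RPM, a ratio of -0.53.

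The small subunit processome, which assembles on the precursor rRNA, had 1 member lower and 3 higher in pleural cavity eosinophils. Utp4 was lower, at 19.8 against 45.9 RPM, a log2 ratio of -1.22. Utp14a was 1.51-fold higher, at 74.1 against 49.0 RPM. Rrp36 and Rrp7a were 1.39-fold and 1.28-fold higher, with fractional reads in both. The 3 higher genes all lay within 2-fold. Across the 4 groups for making ribosomes, which leave out Eif6, 12 of 15 genes were lower and 10 of them over 2-fold. Among all listed genes 57.5% were lower and 50.5% over 2-fold lower.

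Initiation factors mostly lay within 2-fold. Of 10, 8 were lower, but only Eif4e and Eif3f by over 2-fold, and the median log2 ratio was -0.77. That is a smaller share than the 50.5% of all listed genes, whose median was -1.02. Eif4e, the protein that binds the mRNA cap, was at 71.7 RPM against 166 in the bone marrow group, 2.31-fold lower. Eif4e3, a related cap-binding protein, was at 55.4 against 110.3 RPM, 1.99-fold lower. Eif4b, which aids the helicase eIF4A, was at 109.5 against 193 RPM. The 4 listed subunits of eIF3, the complex that joins the small subunit to the mRNA, were all lower. Eif3f had the largest gap among them (174 against 357 RPM, log2 ratio -1.04), followed by Eif3i at -0.84, Eif3k at -0.73 and Eif3h at -0.64. Eif2s2, the beta subunit of eIF2, was at 84.1 against 135 RPM. The 2 exceptions were Eif1, which guards start codon choice, at 1263 against 899 RPM, and the helicase Eif4a2, at 273 against 207, and both have fractional reads. Eif4g1, Eif4a1, Eif2s1, Eif3a and Eif5a are not listed.

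All 4 listed elongation factors were over 2-fold lower, against 50.5% of all listed genes. Eef1a1, which brings charged tRNAs to the ribosome, had the highest bone marrow level per kilobase of all 46 genes, 2002 RPM per kilobase, and stood at 3591 RPM (42240.6 mean reads), against 1067 in pleural cavity eosinophils (17017.5 mean reads). That is 3.37-fold lower, on fractional mean reads. Eef1g and Eef1b2, members of the exchange complex that recharges eEF1A with GTP, were at 78.2 against 252 and at 103 against 275 RPM, 3.22-fold and 2.68-fold lower. Eef2, which moves the ribosome along the mRNA, was at 446 against 966 RPM, 2.16-fold lower. Summed, the 4 took 1694 RPM against 5084 in the bone marrow group.

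The 6 members grouped as inhibitors of translation were higher in pleural cavity eosinophils, 2 of them over 2-fold. This group was put together with the values known, so its direction is a description only. Outside the symbol rule, Larp1, a repressor of mRNAs that encode ribosomal proteins, was 1.79-fold lower, and Paip2, which holds back poly(A)-binding protein, was 1.55-fold higher. Eef2k, the kinase that inactivates eEF2, was at 1059.5 RPM in pleural cavity against 392 in bone marrow eosinophils (16896.5 and 4609.5 mean reads), 2.70-fold higher. Eif4ebp1, which binds eIF4E and blocks cap-dependent initiation, was at 442 against 163 RPM, 2.71-fold higher. Its relative Eif4ebp2 was at 162 against 94.9 RPM, 1.71-fold higher. The remaining 3 differed by less. Eif2ak4, the kinase known as GCN2 that senses uncharged tRNA, was 1.65-fold higher, Eif6, which keeps the subunits apart, was 1.52-fold higher, and Eif4e2, a cap-binding repressor, was 1.28-fold higher. Eif2ak2 is not listed.

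**Figure D2:**
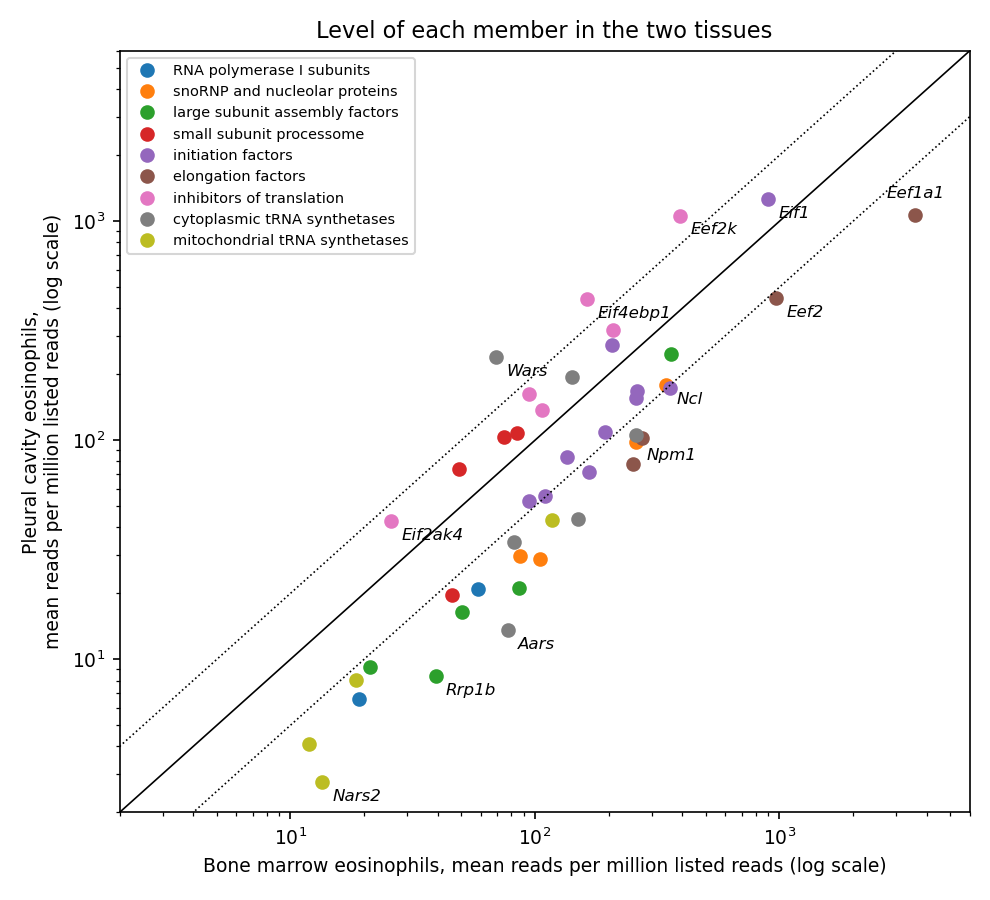
RPM of the same genes in bone marrow eosinophils (x axis) and pleural cavity eosinophils (y axis), both on log scales. Each point is 1 gene, coloured by role, with lines for equal levels and for 2-fold. Most points lie below the line of equality, Eef1a1 is the point farthest to the right at 3591 RPM, and Eef2k and Eif4ebp1 lie above the upper 2-fold line.

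Comparing a restraining gene with another member inside one tissue removes the scaling between tissues. Per kilobase of transcript, Eef2k stood at 0.191 times Eef2 in bone marrow and 1.11 times Eef2 in pleural cavity eosinophils, a 5.85-fold shift. Eif4ebp1 stood at 2.46 times Eif4e in bone marrow and 15.4 times in pleural cavity eosinophils, a 6.26-fold shift. For Eif4ebp2 over Eif4e the shift was 3.95-fold, and for Eif4e2 over Eif4e it was 2.97-fold. These ratios describe RNA levels and were formed from genes already seen to differ in direction.

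**Figure D3:**
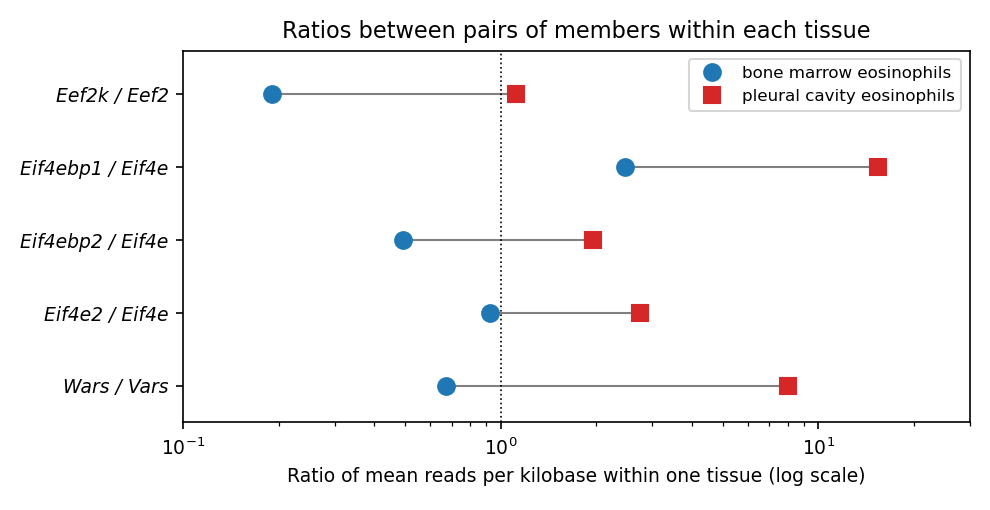
Ratio of the level of 1 gene to that of another within a tissue, per kilobase of transcript (log axis), in bone marrow and pleural cavity eosinophils. Each pair of points joined by a line is 1 gene pair. Each pair sets a gene already seen to be higher over one already seen to be lower, so all 5 ratios had to rise in pleural cavity eosinophils. The shifts run from 2.97-fold for Eif4e2 over Eif4e to a shift from 0.670 to 8.02 for Wars over Vars.

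In the GRCm38 annotation the 3 genes over 2-fold higher lie apart, with Eef2k at chr7:120842831-120907450, Eif4ebp1 at chr8:27260329-27276674 and Wars at chr12:108860030-108894174, and Aars lies at chr8:111033144-111057664.

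The cytoplasmic tRNA synthetases held both ends of the range. Aars, for alanine, was at 13.6 RPM in pleural cavity against 77.4 in bone marrow eosinophils (216.5 and 911 mean reads), 5.70-fold lower. Vars, for valine, was at 43.8 against 150.5 RPM, 3.44-fold lower, with fractional reads. Dars, for aspartate, was at 105 against 259.5 RPM, and Iars, for isoleucine, at 34.4 against 82.0, which are 2.46-fold and 2.38-fold lower. In contrast, Wars, the tryptophan synthetase and a known target of interferon gamma, was at 240.2 against 69.0 RPM (3831 and 812 mean reads), 3.48-fold higher. Gars, for glycine, was 1.38-fold higher at 195 against 142 RPM. Per kilobase, Wars stood at 0.670 times Vars in bone marrow and 8.02 times Vars in pleural cavity eosinophils, a rise that follows from their opposite directions.

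The 5 members grouped as mitochondrial synthetases, by a symbol ending in 2, were all over 2-fold lower, with a median log2 ratio of -1.53. Among all listed genes 50.5% were over 2-fold lower. Gars, whose symbol has no such ending, was counted as cytoplasmic only and was 1.38-fold higher. The direction therefore holds for this grouping by symbol, not for every synthetase that may serve mitochondria. Nars2, for asparagine, was at 2.76 against 13.5 RPM, 4.90-fold lower, but on 44 and 159 mean reads. Iars2, for isoleucine, was at 43.2 against 117 RPM, with fractional reads. Yars2 and Lars2 were 2.90-fold and 2.31-fold lower.

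**Figure D4:**
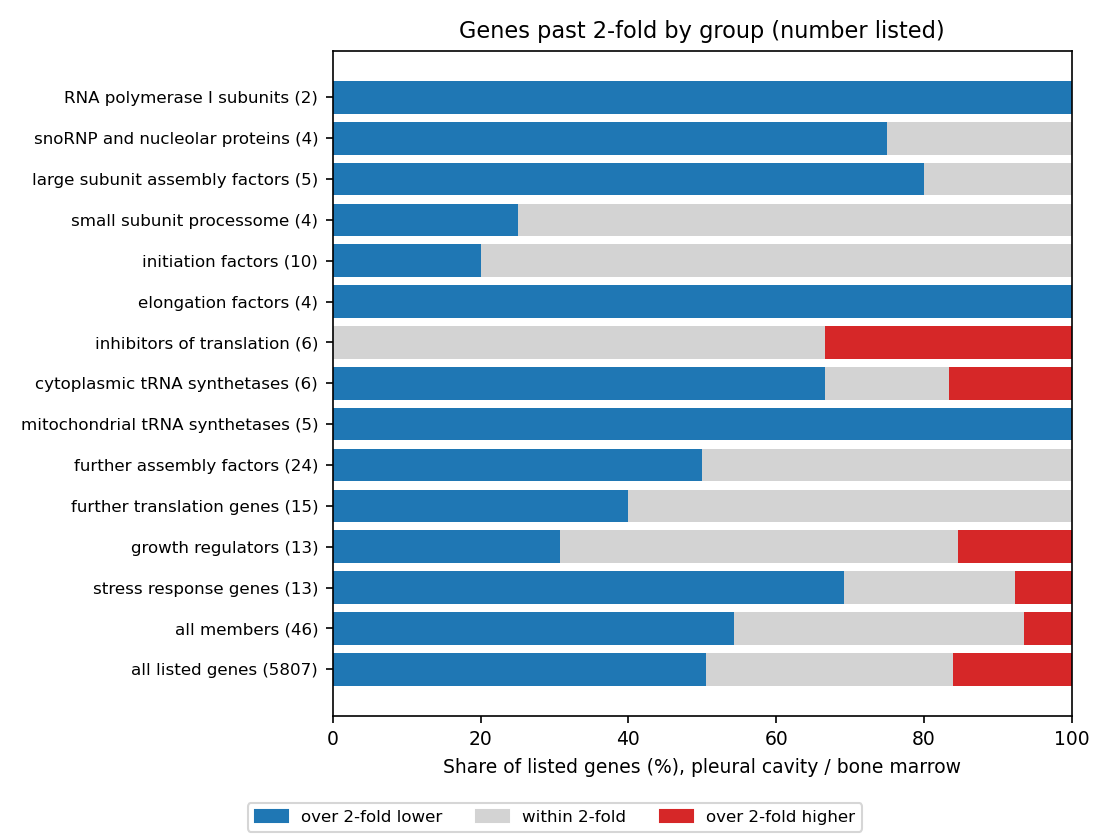
For each role group, each further list and all listed genes (y axis, with the number of genes), the percentage of genes (x axis) over 2-fold lower (blue), within 2-fold (grey) and over 2-fold higher (red) in pleural cavity eosinophils. All listed genes stand at 50.5% and 16.0%, all members at 54.3% and 6.52%, and the bars of RNA polymerase I subunits, elongation factors and mitochondrial synthetases are blue over their whole length.

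Upstream regulators were listed in part, 13 of 32, with a median log2 ratio of 0.44. Myc was at 15.1 RPM in pleural cavity against 220.3 in bone marrow eosinophils, 14.6-fold lower. Mxd3 and Mxd1, which pair with Max and antagonise Myc, were 21.9-fold and 2.54-fold lower, while Mnt, another antagonist, was 1.65-fold higher. The RNA polymerase I factors Ubtf and Ttf1 were 1.29-fold and 1.45-fold higher, and Mlst8, a subunit of both mTOR complexes, was 3.82-fold lower. Rptor, which defines mTORC1, and Mknk2, a kinase of eIF4E, were higher, with log2 ratios of 1.19 and 1.29. Maf1, a repressor of RNA polymerase III, had a ratio of 0.95, and Mtor is not listed. In this list 4 genes were over 2-fold lower and 2 over 2-fold higher, against 50.5% and 16.0% of all listed genes.

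Further genes of the pathway lie outside the symbol rule. Of 99 further assembly factors 24 are listed, 12 of them over 2-fold lower and 0 over 2-fold higher, with a median log2 ratio of -1.05, near the 50.5% over 2-fold lower and the median of -1.02 among all listed genes. The 5 higher ones were Ddx24, Rpf1, Aatf, Rsl24d1 and Imp4, all within 2-fold. Gnl3, Gar1 and Nat10 led them at 5.15-fold, 4.17-fold and 4.08-fold lower. Of 62 further translation genes 15 are listed, 6 over 2-fold lower and 0 over 2-fold higher, a smaller lower share than the 50.5% of all listed genes. The 4 higher ones were Dhps, Paip2, Gle1 and Srp14, all within 2-fold. Mettl1, a tRNA methyltransferase, was 24.8-fold lower on 9.5 and 174 mean reads, and Pus7, a pseudouridine synthase, was 7.52-fold lower.

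Of 24 genes of the amino acid and unfolded protein responses 13 are listed, 9 over 2-fold lower and 1, Nupr1, over 2-fold higher (log2 ratio 2.03), against 50.5% and 16.0% of all listed genes. The other higher ones were Ppp1r15b, Xbp1 and Ppp1r15a, with log2 ratios of 0.41, 0.31 and 0.23. Asns, which makes asparagine, was at 1.41 against 57.3 RPM, 40.6-fold lower. Phgdh and Psat1, enzymes of serine synthesis, were 31.8-fold and 7.43-fold lower. Chac1 had a mean of 0 reads in the pleural cavity against 64.5 in the marrow, which with a floor of 3 mean reads is at least 29.1-fold lower. Atf4 and Ddit3 are not listed.

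In the RefSeq promoters, 250 bases before to 50 after each start, the E-box CACGTG was found in 9 of the 34 genes with an entry (26.5%), against 11.3% of listed genes and 8.09% of all 27025 genes. Its holders were Aars, Eef2, Eef2k, Eif3f, Eif3k, Eif4e, Iars, Rrp7a and Utp4, 7 lower and 2 higher in pleural cavity eosinophils. The amino acid response element core was found in Aars, Gars, Iars and Eef2k (11.8%, against 3.79% of listed and 4.51% of all genes), 2 lower and 2 higher, with the matches in Iars and Eef2k outside the windows shown. A GAS motif TTCNNNGAA, the kind STAT proteins bind, was found in 5 genes (14.7% against 9.55% of all genes), and the core of an ISRE, GAAANNGAA, in 0 of 34 against 9.76%. A gene with several RefSeq starts was counted where any of its windows held the motif. Both strands were searched, the E-box and GAS motif read alike on both, and Wars has no entry. These are matches of letters, with no test, and no binding was measured.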

How the data were processed

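RNA of sorted eosinophils (wild-type mice) was sequenced in 4 libraries, with 2 for each tissue, which were grouped by their titles. What was analysed is the authors' table of 5807 genes. Its 2 columns of mean reads hold the expected counts that the authors estimated per gene with RSEM and averaged over the libraries of a tissue, deposited without scaling for depth. Per the submitters' processing notes the tools included HISAT2 2.1.0, Bowtie2 2.2.5 and RSEM 1.2.8, and the methods name GRCm38 as the genome. The remaining columns hold the authors' own comparison (a log2 ratio, a p-value and a q-value) and were not used, but they decided which genes are listed. The study's text names a p-value and a 2-fold threshold for its list. By the ratios computed here 1942 of the listed genes lay within 2-fold, so that threshold does not hold for these ratios. No column of per-sample values was passed over (0 columns). No library has a value of its own, so depth per library is unknown and no standard deviation, interval or test was computed.

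Here each mean was divided by the total of its column, means under 3 reads were set to a floor of 3, and ratios were taken on the log2 scale with no pseudocount. Mean reads are called fractional where they are not multiples of 0.5, with a tolerance of 0.02 on the summed reads, which can arise where RSEM splits a read over similar genes. The planned tests on counts per library could not be run. Lengths and positions come from GENCODE release M21 on GRCm38, matched on Ensembl identifiers for all 46 genes, with the longest protein-coding transcript of each. Promoters are those of RefSeq on GRCm38.p6. The members, role groups, gene lists and motifs were chosen with earlier results of these data known. Named genes are the core members of the pathway, the largest ratios and highest levels in each role group, and the largest ratios of each further list. The other members and a few further genes of the lists are given as well, chosen after their values were seen. Of the 46 genes, 1 is counted but not reported here on its own. Alternatives covered scaling, thresholds, minimum reads and fractional reads. Python 3.11.15, pandas 2.3.3, numpy 2.4.6 and matplotlib 3.10.9 were used, and the ratio code was tested on simulated data.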

Additional observations from a re-analysis of the deposited data

How the results depend on the processing

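With means alone, leaving out a replicate and the planned comparison of edgeR with DESeq2 were not run. No paired analysis was possible because the columns of mean reads carry no replicate numbers. The depth behind a value is seen only as mean reads, which limits the genes with few of them. No listed member lies outside the pathway by function, so that alternative gave no value of its own.

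Against 25 members over 2-fold lower, 3 over 2-fold higher and a median log2 ratio of -1.16, unscaled mean reads gave 15 lower, 7 higher and a median of -0.72. The median was -1.37 with scaling to the trimmed mean of the log2 ratios, -1.31 with scaling to the total without the 100 most abundant genes of either tissue, and -1.42 with scaling to the total without granulocyte and basophil markers, Prg2 and Epx, the last chosen after seeing the data. The median of all listed genes moved alike, to -0.58 unscaled and to -1.23, -1.17 and -1.28 under these scalings in the same order. At 1.5-fold 7 members were higher, and at 4-fold 0 were higher and 4 lower. Without the 6 inhibitors of translation, also chosen after seeing the data, 1 member was over 2-fold higher. Minimum reads of 50 or 100, a floor of 10 reads and leaving out members with fractional reads kept the counts within 1.5 times of the main ones, where each applied. No member's ratio changed sign under the 4 other scalings. Each of these scalings shifts every ratio alike, by -0.26 to 0.44 on the log2 scale. The smallest absolute log2 ratio of a member was 0.36, for Eif4e2, which was higher. Among lower members Nop53 differed least, at -0.53. These shifts were therefore too small to change any sign, and the study's own ratios were not among the alternatives.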

Other observations

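Of the 46 genes, 10 lie on chromosome 1, which is 21.7% of them, against 5.86% of all listed genes (340 genes). Shares were computed for this chromosome alone, and not for the annotated genes that match the symbol rule. The 10 members include Nop58, Wdr12, Rrs1, Rrp15, Ncl, Eef1b2, Eif4e2, Dars and Iars2. Of the 10, 9 were lower in pleural cavity eosinophils, with Eif4e2 the exception. Lower were also 71.7% of all 46 genes and 57.5% of all listed genes. Nop58, a core protein of box C/D snoRNPs, and Wdr12, a large subunit assembly factor, lie 350740 bases apart in the GRCm38 annotation and had log2 ratios of -1.55 and -2.04. Genes near each other are given here as a description of position, with no test.

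Reads were fractional for 11 of the 46 genes. These 11 had a median log2 ratio of -1.75, with 7 over 2-fold lower and 4 higher by less than 2-fold. The 35 genes without fractional reads had a median of -1.04, with 18 over 2-fold lower and 3 over 2-fold higher. What reads shared with pseudogenes or similar genes add to these medians was not tested.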
